A study of Homo sapiens with 4 samples.

Results

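The genes described here are 10 genes of the microRNA (miRNA) pathway: DROSHA and DGCR8, which form the nuclear Microprocessor, the export receptor gene XPO5, the cytoplasmic DICER1 and its partner TARBP2, the Argonaute genes AGO1, AGO2, AGO3 and AGO4, and LIN28B, whose product blocks the maturation of one miRNA family. They were chosen by gene symbol, and all 10 were found among the 20322 targets of the deposited count table, each as 1 protein-coding transcript. The 4 libraries came from the human colorectal adenocarcinoma line HT-29, and the labels give a liver metastasis in a mouse as the origin of the lines. In all 4 the gene for the RNA-binding protein IMP1 (symbol IGF2BP1) had been targeted with CRISPR/Cas9. The IMP1-OE group (2 libraries) carried a PiggyBac vector, PB*-FLAG-IMP1-short UTR, and the null group (2 libraries) the empty vector PB*-empty. All lines were grown with puromycin. The labels leave unsaid whether the 2 libraries of a group are separate clones or cultures, and p-values measure no more than the spread of these libraries, possibly a technical one. The comparison asks which mRNAs differ in level when IMP1 is put back.

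A miRNA gene is first transcribed as a long primary RNA. The Microprocessor, the nuclease DROSHA with its RNA-binding partner DGCR8, cuts a hairpin out of it, exportin-5 (XPO5) carries the hairpin to the cytoplasm, and DICER1 with TARBP2 trims it to a short duplex. One strand is loaded into an Argonaute protein and guides it, mainly through bases 2 to 8 of the miRNA (the seed), to mRNAs that are then repressed. IMP1 is itself an mRNA-binding protein whose own transcript is a target of the let-7 miRNAs, and LIN28B, an oncofetal protein like IMP1, binds let-7 precursors and stops their maturation. Mature miRNAs were not measured in these mRNA libraries.

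Several miRNA sequences mark the points at which the pathway acts on its own genes. The let-7 family is shown because it is the substrate of LIN28B and because its known targets include LIN28B, DICER1 and IGF2BP1. The 9 mature members in the RefSeq table (build GRCh38.p14), encoded by 12 genes, all carry the same seed, in capitals below, and the 6 shown differ only outside it.
let-7a-5p: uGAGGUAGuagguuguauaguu
let-7d-5p: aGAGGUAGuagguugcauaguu
let-7e-5p: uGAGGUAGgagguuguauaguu
let-7g-5p: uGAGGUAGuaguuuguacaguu
let-7i-5p: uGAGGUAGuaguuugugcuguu
miR-98-5p: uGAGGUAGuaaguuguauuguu

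Both miR-103a and miR-107 are known to target DICER1 mRNA, and they share 1 seed, again in capitals.
miR-103a-3p: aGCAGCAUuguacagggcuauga
miR-107: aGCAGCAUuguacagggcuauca

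DGCR8 is itself a host gene. The mature miR-3618 and miR-1306 of the RefSeq table lie within it on the same strand of chromosome 22, and the Microprocessor is known to cut DGCR8 mRNA at such hairpins, which lowers DGCR8.
miR-3618: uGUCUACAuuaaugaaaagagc
miR-1306-3p: aCGUUGGCucugguggug

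Library totals ran from 9343429 to 10594813 estimated counts. One target, ARSI, took 8.01% and 12.4% of the counts in IMP1-OE and 17.8% and 17.3% in null. Levels are therefore given as CPM, counts scaled to a common library total, after TMM scaling, edgeR's correction for such composition differences. IGF2BP1 had 71 and 112 counts in IMP1-OE and 37 and 16 in null, higher in both IMP1-OE libraries, as the labels have it. The fitted difference was 3.22-fold, and it was called neither by edgeR (adjusted p = 0.453) nor by the authors' deposited table (adjusted p = 0.292). Markers of colorectal epithelium summed to 26561 and 27326 CPM in IMP1-OE and to 28801 and 21043 CPM in null. Of 8 hepatocyte markers, 4 (ALB, APOA1, APOA2 and CYP3A4) had no count in any library, but the summed level of the list was higher in IMP1-OE, at 689 and 732 CPM, against 441 and 228 CPM in null. Nearly all of it was SERPINA1, the alpha-1 antitrypsin gene, at 685 and 725 CPM in IMP1-OE against 436 and 225 CPM in null, which the authors' deposited table calls at an adjusted p of 0.0491 and edgeR does not (adjusted p = 0.446). The transferrin gene TF, the other hepatocyte marker tested, was at 3.43 and 6.94 CPM in IMP1-OE against 2.74 and 3.06 CPM in null, and the part of these markers in the results was not tested. Among 9 stromal markers the summed level was 8.76 and 4.66 CPM in IMP1-OE and 15.7 and 15.9 CPM in null, and the summed level of 8 blood and endothelial markers, mostly LYZ, was 1915 and 1761 CPM in IMP1-OE against 2836 and 1449 CPM in null. Null replicate 2 stood apart in interferon-stimulated genes. The 12 listed summed to 634 and 870 CPM in the IMP1-OE libraries, with 800 CPM in null replicate 1 against 6863 CPM for its partner null replicate 2, the higher of the null pair for all 12 genes. With all libraries the 12 genes had log2 fold changes (IMP1-OE over null) below 0, with a median of -2.72. Of these, 11 had an unadjusted edgeR p under 0.05, and edgeR called 0 at the adjusted threshold. For 6 of the 12 both null libraries lay above both IMP1-OE libraries, as for 21.9% of all genes tested. The authors' deposited table calls IFIT2 (adjusted p = 0.00935). Below, some results are also given without a null library, mostly where omitting it changed the direction or moved the value by over 1.5 times. These are the fold changes of the 9 genes tested, and the medians and counts above 0 of the pathway lists. Such fold changes are also given for the list genes ADAR, MOV10, TUT4, IGF2 and PLD6. In such a fit 1 library stands for the null group, so calls are left out for the list genes. The other genes are given by their level in each library. Some of them also moved by over 1.5 times, such as RAN, whose log2 fold change of 0.50 became 0.27 without null replicate 2. The part of the interferon-stimulated genes in those results was not tested. A bulk library does not tell less RNA per cell from fewer cells that hold it.

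None of the 10 genes passed an edgeR adjusted p of 0.05 in the quasi-likelihood test. Of these genes 9 had enough counts to be tested, and LIN28B did not. Across the series the same test called 0% of 12113 genes, with 10.2% at an unadjusted p under 0.05 (1233 genes). DESeq2 and the authors' deposited table called the same 164 genes, 1.28% of those with an adjusted p, and neither called any of the 10. At an unadjusted p under 0.05, edgeR, DESeq2 and the deposited table each gave 1 of the 10, XPO5, where DESeq2 and the deposited table gave 7.54% of the genes they tested.

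The fitted log2 fold change (IMP1-OE over null) of the 9 genes tested lay above 0 in each case, from 0.01 for DGCR8 to 0.51 for XPO5, with a median of 0.30. Among all genes tested 48.1% lay above 0 and the median was -0.02. The signs of DGCR8, DICER1, AGO4 and TARBP2 turned in at least 1 alternative analysis, as given beside each gene. Levels in every IMP1-OE library exceeded those in every null library for 3 of the 9 genes, AGO1, AGO3 and XPO5, and 0 lay wholly below. Over all genes the corresponding shares were 21.3% higher and 21.9% lower, so a count of 3 among 9 genes is not far from the background. AGO1, AGO3 and XPO5 were also the higher ones without null replicate 2, together with DICER1, AGO2 and AGO4, while TARBP2 was then lower (background 36.8% higher and 37.5% lower).

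**Figure D1:**
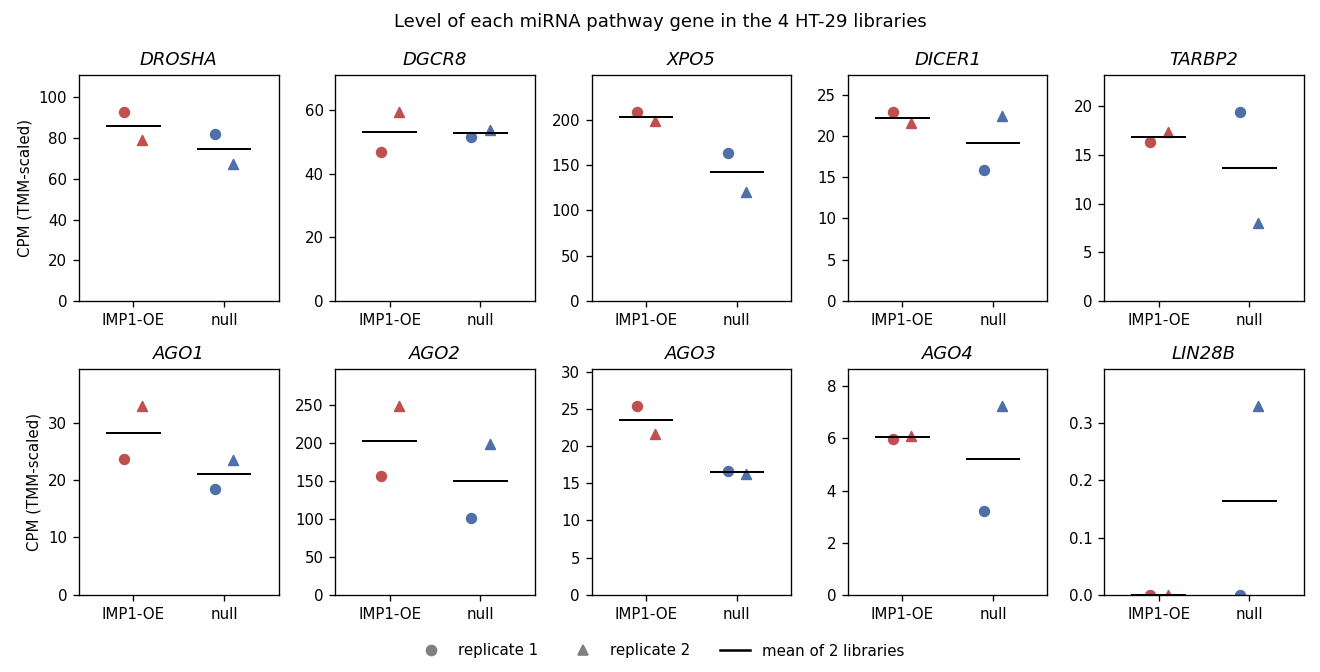
Level of each of the 10 genes (TMM-scaled CPM, linear axis from 0, one scale per panel) in the 2 IMP1-OE and 2 null libraries; circles are replicate 1, triangles replicate 2 and bars the mean of 2. The groups are separate for XPO5, AGO1 and AGO3, the null libraries lie far apart for AGO2, AGO4 and TARBP2, and LIN28B has a value above 0 in null replicate 2 alone.

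Exportin-5, the carrier of pre-miRNA hairpins out of the nucleus, had the smallest p of the set. XPO5 was at 208 and 198 CPM in IMP1-OE, against 164 and 120 CPM in null. Both IMP1-OE libraries lay above both null libraries, and the null libraries differed from each other by 1.36-fold, more than the IMP1-OE libraries, which differed by 1.05-fold. The fitted difference was 1.43-fold (95% interval 1.01 to 2.03), with an adjusted p of 0.485 in edgeR (unadjusted 0.0470), and XPO5 ranked at position 1172 by p among the 12113 genes. Without null replicate 1 the log2 fold change was 0.75 instead of 0.51 and the edgeR adjusted p was 0.0445, so that the call depends on that library. In that fit null replicate 2 stands alone for its group and is assumed to vary as the IMP1-OE libraries do, and 783 genes passed. Without null replicate 2 the log2 fold change was 0.31 (adjusted p = 0.416 in edgeR). The range of the adjusted p over all 12 alternatives was 0.0445 to 0.999. The authors' deposited table gives XPO5 an adjusted p of 0.433.

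RAN, the GTPase that loads and unloads exportins, and XPO1, the main export receptor for proteins, stood on the same side as XPO5. RAN was at 533 and 491 CPM in IMP1-OE against 423 and 301 CPM in null, and XPO1 at 278 and 260 CPM against 215 and 171 CPM. RANGAP1, which activates the GTPase of RAN, was at 175 and 181 CPM in IMP1-OE against 120 and 122 CPM in null (edgeR adjusted p = 0.446). The groups did not overlap for any of these genes, which were named for the smallest p values of their list. Among all genes tested 21.3% lay apart with IMP1-OE higher. None of these genes passed the adjusted threshold. The list of Dicer partners and export factors that holds them had 6 of 7 genes with a log2 fold change above 0, a median of 0.44, and 0 past the threshold. ADAR, an RNA editing enzyme that is induced by interferon, was its exception, at 216 and 230 CPM in IMP1-OE and at 217 and 436 CPM in null, where the higher value was that of null replicate 2. Its log2 fold change was -0.55 with all libraries, 0.04 without that one and -0.97 without null replicate 1. The list median was 0.23 on omission of null replicate 2 and 0.54 on omission of null replicate 1.

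Over the 4 libraries the profiles closest to that of XPO5 belonged to H1-5, a linker histone gene, MRPS14, a mitochondrial ribosomal protein gene, and GMNN, which encodes the replication inhibitor geminin. Likeness was measured as the Euclidean distance between log2 CPM values centred on each gene's mean, and was 0.014, 0.019 and 0.043. With 4 libraries and 12113 genes, close profiles are easily found. H1-5 was at 933 and 896 CPM in IMP1-OE against 732 and 539 CPM in null.

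DROSHA and DGCR8 act upstream of export. DROSHA was at 92.6 and 79.2 CPM in IMP1-OE, against 82.0 and 67.3 CPM in null. The groups overlapped, since null replicate 1 lay above IMP1-OE replicate 2, and the fitted difference of 1.15-fold had a 95% interval of 0.823 to 1.61 (edgeR adjusted p = 0.766). Its log2 value of 0.20 became 0.35 without null replicate 1 and 0.07 without null replicate 2. DGCR8 was at 46.8 and 59.2 CPM in IMP1-OE and at 51.5 and 53.8 CPM in null. Both null values lay between the IMP1-OE values, and the fitted ratio of 1.01 had a 95% interval of 0.714 to 1.42 (edgeR adjusted p = 0.994). The interval leaves room for changes of up to 1.42-fold, and the sign of this log2 fold change of 0.01 turned in 4 of 12 alternatives, to between -0.16 and -0.0004. Omitting null replicate 1 gave -0.02, and omitting null replicate 2 gave 0.04. Of the 10 genes, DGCR8 is the one with miR-1306 and miR-3618 in its transcript region, and the level of those miRNAs was not measured.

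Per kilobase of transcript, which allows levels to be compared between genes, DROSHA stood at 1.68 and 1.13 times the level of DGCR8 in IMP1-OE and at 1.35 and 1.06 times in null. The ratio was above 1 in all 4 libraries, and the groups overlapped. XPO5 stood at 2.24 and 2.49 times the level of DROSHA in IMP1-OE and at 1.99 and 1.78 times in null, with no overlap. Several ratios were computed, and none was tested. With 2 libraries against 2 an exact permutation test cannot give a p under 0.333. A ratio within a library does not depend on the scaling between libraries, and shows unequal levels only.

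Among 13 cofactors of the Microprocessor and other proteins that bind primary miRNAs, 10 had a log2 fold change above 0 (median 0.31) and 0 passed the threshold. HNRNPA1, a splicing regulator that binds certain primary miRNAs, was at 194 and 245 CPM in IMP1-OE against 137 and 109 CPM in null (edgeR adjusted p = 0.435). TARDBP was at 107 and 100 CPM against 82.1 and 79.4 CPM, and SRSF3, which recognises a motif beside many primary miRNA hairpins, at 544 and 500 CPM against 428 and 403 CPM. The groups did not overlap for these 3 genes, named for the smallest p values of the list. Of all genes tested, 21.3% were likewise apart with IMP1-OE higher. The core helicase genes gave smaller differences. DDX5 was at 535 and 526 CPM in IMP1-OE and 477 and 471 CPM in null, and DDX17 was at 195 and 229 CPM in IMP1-OE and 224 and 229 CPM in null. The list median was 0.17 on omission of null replicate 2 and 0.37 on omission of null replicate 1. Both helicase genes are named for their role, outside the rule for named genes.

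DICER1, the nuclease that makes the miRNA duplex, was at 22.8 and 21.6 CPM in IMP1-OE, against 15.8 and 22.4 CPM in null. One null library lay below both IMP1-OE libraries and the other between them. The fitted difference was 1.16-fold with a 95% interval of 0.734 to 1.84 (edgeR adjusted p = 0.825), and its log2 value of 0.22 became -0.01 on leaving out null replicate 1 and 0.49 on leaving out null replicate 2. The genes that host the DICER1-targeting miRNAs shown above, named here for that role, did not stand on one side. PANK1, host of miR-107, was at 13.9 and 10.8 CPM in IMP1-OE against 7.92 and 9.19 CPM in null. PANK2 was at 36.1 and 36.0 CPM in IMP1-OE against 38.7 and 35.1 CPM in null, and PANK3 at 31.0 and 41.0 CPM against 37.2 and 39.9 CPM. These are the hosts of the 2 miR-103a genes.

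TARBP2, the double-stranded RNA-binding partner of DICER1, was at 16.4 and 17.4 CPM in IMP1-OE, against 19.4 and 7.99 CPM in null. The IMP1-OE libraries lay close together and between the null libraries, which differed by 2.42-fold. The fitted difference was 1.23-fold with a 95% interval of 0.577 to 2.63 (edgeR adjusted p = 0.856). Its log2 value of 0.30 became 1.08 with null replicate 1 omitted and -0.20 with null replicate 2 omitted, so the direction rests on null replicate 2. PRKRA, a paralogous partner of DICER1 and activator of the interferon-induced kinase PKR, was at 18.9 and 22.3 CPM in IMP1-OE and at 17.6 and 16.6 CPM in null. PRKRA is named for its role, outside the rule for named genes. Per kilobase, TARBP2 exceeded DICER1 by 4.99 and 5.62 times in IMP1-OE and by 8.52 and 2.48 times in null.

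The 4 human Argonaute proteins all bind miRNAs. AGO2 is the one known to cut a fully matched target efficiently, and AGO1, AGO3 and AGO4 lie in one cluster on chromosome 1. AGO2 was at 156 and 248 CPM in IMP1-OE, against 101 and 198 CPM in null. The groups overlapped, and the replicates differed by 1.59-fold within IMP1-OE and by 1.96-fold within null. The fitted difference was 1.35-fold with a 95% interval of 0.713 to 2.56 (edgeR adjusted p = 0.733). Its log2 value of 0.43 became 0.03 when null replicate 1 was left out, and 1.00 when null replicate 2 was.

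AGO1 was at 23.7 and 32.8 CPM in IMP1-OE, against 18.5 and 23.5 CPM in null. The lower IMP1-OE library and the higher null library nearly met, at 23.70 and 23.53 CPM, and the fitted difference of 1.35-fold had a 95% interval of 0.849 to 2.13 (edgeR adjusted p = 0.628). AGO3 was at 25.3 and 21.7 CPM in IMP1-OE, against 16.6 and 16.3 CPM in null. These groups did not overlap, as was so on the same side for 21.3% of all genes tested. The fitted difference was 1.43-fold, with a 95% interval of 0.949 to 2.14 and an adjusted p of 0.526 in edgeR. The log2 fold change of AGO3 was above 0 in all 12 alternatives, from 0.40 to 0.63, and that of AGO1 likewise, from 0.19 to 0.64. For AGO1 the value of 0.43 with all libraries became 0.26 without null replicate 1 and 0.61 without null replicate 2.

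AGO4 had the fewest counts of the Argonautes, 63 and 64 in IMP1-OE and 33 and 66 in null. Per kilobase it was below AGO3 in every library but null replicate 2, where it was above. That is 6.00 and 6.08 CPM in IMP1-OE against 3.23 and 7.22 CPM in null. The IMP1-OE libraries lay between the null libraries, and the 95% interval ran from 0.467-fold to 2.87-fold. Its log2 fold change of 0.21 became -0.26 with null replicate 1 omitted and 0.90 with null replicate 2 omitted. Fragments of 18 to 50 nt can match more than 1 Argonaute target where the paralogs are alike, so how counts were divided between them is uncertain.

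Summed per kilobase, the 4 Argonaute genes stood at 14.6 and 21.4 CPM per kilobase in IMP1-OE and at 9.57 and 17.1 CPM per kilobase in null. AGO2 made up 73.6% and 79.7% of this sum in IMP1-OE and 72.4% and 79.3% in null. The share differed between replicates of a group by more than it differed between groups. AGO1 made up 11.9% and 11.2% in IMP1-OE and 14.1% and 10.0% in null, AGO3 8.86% and 5.17% against 8.85% and 4.85%, and AGO4 5.68% and 3.93% against 4.65% and 5.82%.

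**Figure D2:**
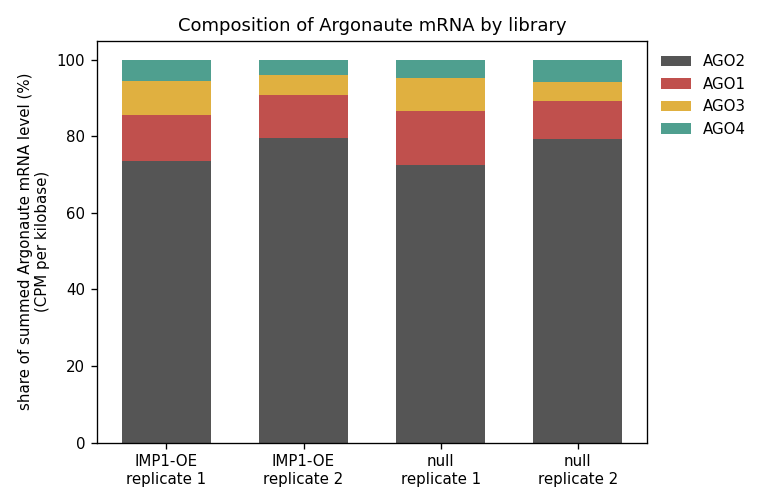
Share of each Argonaute gene in the summed Argonaute mRNA level (percent of CPM per kilobase, bars stacked from 0) in each of the 4 libraries. AGO2 takes 72.4% to 79.7% in every library, and the order AGO2, AGO1 holds in all 4.

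The proteins that carry Argonautes to their effect were measured as well. The GW182 proteins bind Argonaute and recruit the deadenylation machinery. TNRC6A was at 26.4 and 27.0 CPM in IMP1-OE against 19.2 and 21.8 CPM in null, TNRC6B at 20.9 and 22.1 CPM against 19.5 and 17.9 CPM, and TNRC6C at 9.23 and 11.7 CPM against 9.78 and 15.3 CPM. These 3 were named for their role. In the list of 11 RISC effector genes 7 had a log2 fold change above 0, and 0 passed the threshold. The count above 0 was 10 on omission of null replicate 2 and 6 on omission of null replicate 1. The smallest p values were those of PABPC1, the cytoplasmic poly(A)-binding protein gene, at 312 and 411 CPM in IMP1-OE against 205 and 283 CPM in null, and of MOV10, a helicase gene found with Argonaute, at 102 and 109 CPM against 122 and 194 CPM. The log2 fold change of MOV10 was -0.59 with all libraries, -0.21 on omission of null replicate 2 and -0.88 on omission of null replicate 1. FXR1, a relative of the fragile X protein, was at 85.5 and 93.2 CPM in IMP1-OE against 65.8 and 75.4 CPM in null.

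Genes of the chaperones that load RNA into Argonaute stood mostly on the higher side, with 12 of 13 above 0, a median log2 fold change of 0.34, 5 at an unadjusted edgeR p under 0.05 and 0 past the adjusted threshold. The share of all genes that were higher at this unadjusted threshold was 4.34%. HSPA8, the constitutive HSC70, was at 4284 and 5008 CPM in IMP1-OE against 2389 and 2915 CPM in null, and the authors' deposited table calls it at an adjusted p of 0.0137, which in edgeR was 0.433. The HSP90 gene HSP90AA1 was at 1760 and 1964 CPM in IMP1-OE against 1369 and 1407 CPM in null, and HSP90AB1 at 3041 and 3277 CPM against 2552 and 2134 CPM. HSPA4, an exchange factor of HSC70, was at 268 and 262 CPM in IMP1-OE against 203 and 179 CPM in null, and FKBP4, an HSP90 cochaperone, at 223 and 240 CPM against 168 and 102 CPM. On omission of null replicate 2 the list median was 0.17, and on omission of null replicate 1 it was 0.48. These chaperones serve many client proteins besides Argonaute. HSPA1A, a stress-induced HSP70 gene among the stress markers, was at 594 and 678 CPM in IMP1-OE and at 745 and 1413 CPM in null. Of the 8 stress and immediate early markers, 7 had a log2 fold change below 0 and 1 above, with a median of -0.68. In 5 of them both null libraries lay above both IMP1-OE libraries, as for 21.9% of all genes tested. At an unadjusted edgeR p under 0.05 there were 2, and 0 passed the adjusted threshold. The part of these markers was not tested.

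The genes of deadenylation showed no common side, with 7 of 15 above 0, a median log2 fold change of -0.01 and 0 at an unadjusted p under 0.05. CNOT3 was at 76.3 and 76.0 CPM in IMP1-OE against 84.2 and 103 CPM in null, CNOT9 at 35.6 and 39.4 CPM against 24.5 and 33.7 CPM, and CNOT7, a catalytic subunit, at 19.2 and 17.6 CPM against 20.2 and 26.4 CPM. Their median was 0.01 on omission of either null library. Among 18 genes of decapping and 5′ decay 10 were above 0, with a median of 0.06. This median was -0.0017 on omission of null replicate 1 and 0.04 on omission of null replicate 2. LSM4 and LSM3, subunits of the same LSM ring, lay on opposite sides. LSM4 was at 260 and 347 CPM in IMP1-OE, against 724 and 551 CPM in null (edgeR adjusted p = 0.431), and the authors' deposited table calls it lower at an adjusted p of 0.00556. LSM3 was at 39.0 and 50.4 CPM in IMP1-OE against 28.4 and 26.9 CPM in null. DCP1A, a decapping activator gene, was at 24.7 and 30.8 CPM in IMP1-OE against 19.4 and 22.4 CPM in null.

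**Figure D3:**
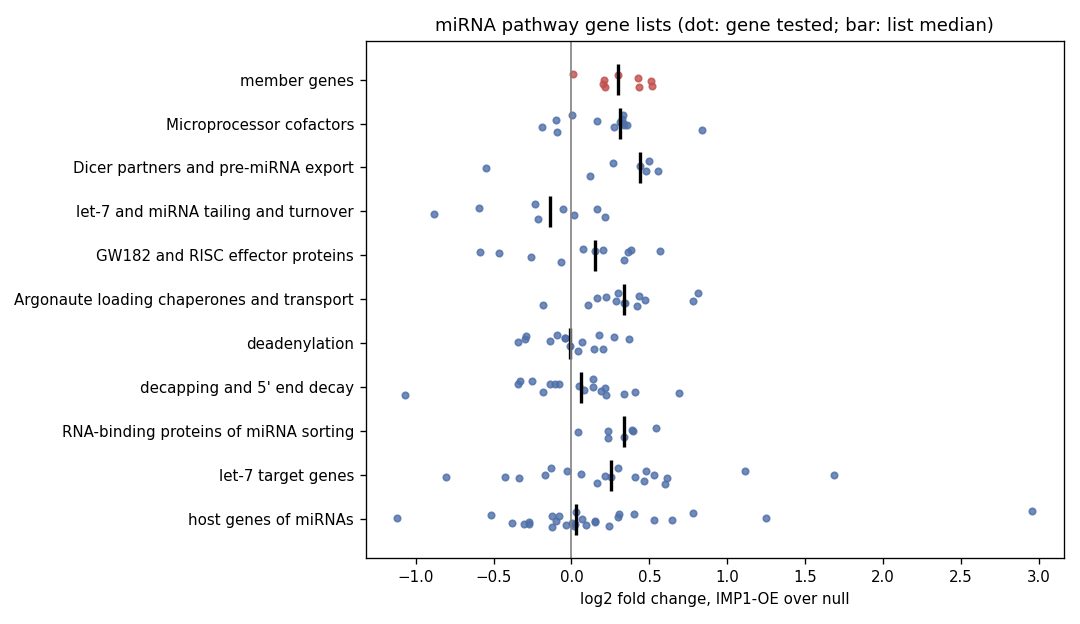
Fitted log2 fold change (IMP1-OE over null) of each gene tested in the member set and in 10 pathway lists; dots are genes, spread vertically for display, and black bars are list medians. Medians run from -0.14 for miRNA tailing and turnover to 0.44 for Dicer partners and export.

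LIN28B was near the limit of detection. Its counts were 0 and 0 in IMP1-OE and 0 and 3 in null, which put it outside the test. The floor was set at 3 counts per library, or 0.285 CPM in each IMP1-OE library and 0.293 CPM in null replicate 1. The 3 counts of null replicate 2 are 0.328 CPM. By the two-sided exact Poisson 95% interval, a wider limit than this floor, a count of 0 allows up to 3.69 counts and the count of 3 a range of 0.619 to 8.77 counts. Both groups lie at or under this floor, so no fold is given. Its paralog LIN28A had 0 and 12 counts in IMP1-OE and 0 and 5 in null (0 and 1.14 CPM against 0 and 0.547 CPM). It lay above the floor in replicate 2 of each group, and did not pass the low-count filter of the test. IGF2BP1, another oncofetal gene, had counts in all 4 libraries.

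The enzymes that act with LIN28 on let-7 precursors were measured. TUT4, a uridyltransferase, was at 9.52 and 8.27 CPM in IMP1-OE against 12.7 and 20.1 CPM in null (edgeR adjusted p = 0.485). Its log2 fold change of -0.88 became -0.52 on omission of null replicate 2. The relative of TUT4, TUT7, named for its role, was at 39.5 and 24.3 CPM in IMP1-OE and 26.3 and 28.7 CPM in null, and DIS3L2, the exonuclease that degrades tailed precursors, also named for its role, was at 34.4 and 29.8 CPM in IMP1-OE and 37.7 and 29.1 CPM in null. ZSWIM8, the ubiquitin ligase gene of target-directed miRNA decay, in which Argonaute is destroyed and its miRNA with it, was at 23.3 and 21.5 CPM in IMP1-OE against 34.5 and 33.2 CPM in null (edgeR adjusted p = 0.456). PARN, a poly(A) ribonuclease gene, was at 38.8 and 30.8 CPM against 39.5 and 41.5 CPM. The list held 3 genes above 0 of 8 tested, with a median log2 fold change of -0.14, and 0 passed the threshold. Without null replicate 1, 4 of 8 were above 0 with a median of -0.05, and without null replicate 2, 2 of 8 with a median of -0.17.

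Known let-7 targets were given a list of 22 genes, of which 19 were tested. A log2 fold change above 0 was found for 13, the median was 0.25 and 0 passed the threshold. After IGF2BP1, which the vector supplies, the smallest p values belonged to MYC, at 386 and 367 CPM in IMP1-OE against 299 and 241 CPM in null, and to CCND1, at 119 and 108 CPM against 157 and 149 CPM. These 2 growth genes lay on opposite sides. The list median was 0.22 on omission of null replicate 1 and 0.30 on omission of null replicate 2. DICER1 is both a gene of the pathway and on this list, and the count above 0 and the medians include both DICER1 and IGF2BP1.

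Of 32 symbols listed as protein-coding hosts of miRNAs, 31 were in the table and 28 were tested, with 17 above 0 and a median log2 fold change of 0.03. Strand was known for 26 of the 32 in RefSeq, and 24 of these held a miRNA on their own strand. On omission of null replicate 2, 13 of 28 were above 0 with a median of -0.02, and on omission of null replicate 1 the median was 0.09. R3HDM1, the host of a miR-128 gene, was at 18.4 and 24.9 CPM in IMP1-OE against 11.5 and 13.7 CPM in null (edgeR adjusted p = 0.468). Its miRNA is shown with the seed in capitals.
miR-128-3p: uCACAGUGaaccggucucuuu

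IGF2, which hosts miR-483, was at 126 and 156 CPM in IMP1-OE against 14.0 and 22.3 CPM in null. The authors' deposited table calls it at an adjusted p of 1.02e-17, which in edgeR was 0.124 with all libraries. Its log2 fold change of 2.96 became 2.66 on omission of null replicate 1 and 3.33 on omission of null replicate 2. CHM, the host of miR-361, was at 18.1 and 20.9 CPM in IMP1-OE against 27.0 and 28.8 CPM in null. HUWE1, host of let-7f-2 and miR-98, was at 536 and 516 CPM in IMP1-OE and at 511 and 491 CPM in null, and MCM7, host of miR-25, miR-93 and miR-106b, at 759 and 756 CPM against 808 and 676 CPM. HUWE1 and MCM7 were named for their miRNAs. Host mRNA levels do not give the level of the miRNA.

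RNA-binding proteins reported to sort miRNAs into extracellular vesicles, which this study follows, had 7 of 7 log2 fold changes above 0, with a median of 0.33 and 0 past the threshold. ALYREF, an mRNA export adaptor, was at 302 and 299 CPM in IMP1-OE against 213 and 199 CPM in null (edgeR adjusted p = 0.446). ELAVL1, the gene of HuR, was at 241 and 237 CPM in IMP1-OE against 196 and 168 CPM in null, and YBX1 at 338 and 388 CPM against 258 and 296 CPM. The groups did not overlap for these 3 genes, which have the smallest p values of the list. IMP1-OE was higher without overlap for 21.3% of all genes tested. On omission of null replicate 1, 6 of the 7 were above 0. Genes of the germline branch of the Argonaute family, the PIWI genes, and their partners summed to 22.2 and 22.3 CPM in IMP1-OE and to 23.0 and 23.0 CPM in null. In this list 2 genes had no count in any library. Of 9 PIWI genes and partners 3 were tested, HENMT1, PLD6 and PIWIL4, and their log2 fold changes lay between -0.06 and 0.24, though PLD6, at 0.24, was at 1.52 on omission of null replicate 1 and at -0.42 on omission of null replicate 2. Their counts above 0 were 2 of 3 with all libraries and 1 of 3 on omission of null replicate 2.

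**Figure D4:**
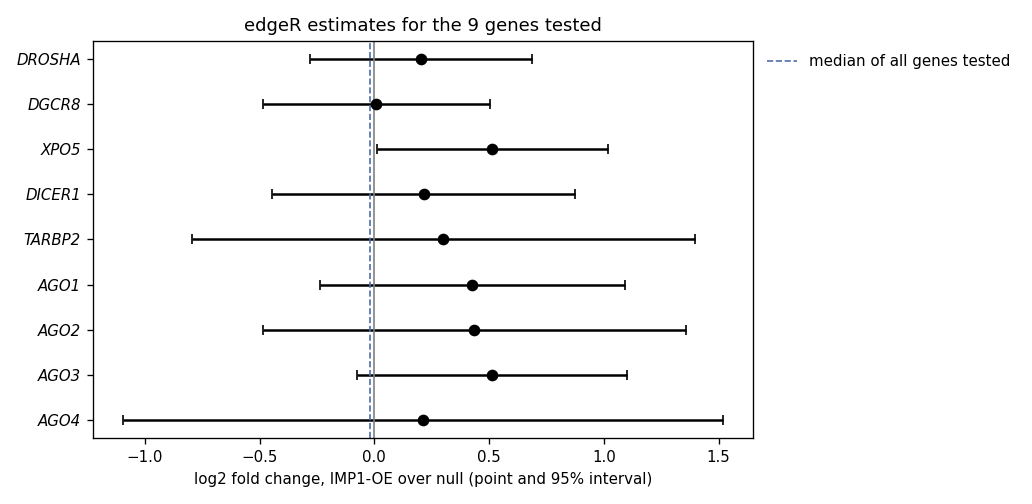
Fitted log2 fold change (IMP1-OE over null) of the 9 genes tested, with 95% intervals from edgeR's quasi-likelihood fit; the dashed line is the median of all 12113 genes, -0.02. The interval of XPO5 starts at 0.01 and those of the other 8 genes include 0.

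The levels of the 10 genes fell into bands that the groups shared. Per kilobase, XPO5 was highest in every library, at 22.7 to 39.2 CPM per kilobase. DROSHA (12.7 to 17.5), AGO2 (6.93 to 17.0), DGCR8 (10.4 to 13.2) and TARBP2 (5.37 to 13.0 CPM per kilobase) formed a second band whose neighbours did not differ beyond their spread. DICER1 (1.53 to 2.20) and AGO1 (1.35 to 2.40 CPM per kilobase) overlapped in a lower band, and AGO3 (0.830 to 1.29) and AGO4 (0.445 to 0.996 CPM per kilobase) in the one below it. Among all genes tested, ranked by their mean level per kilobase, XPO5 stood at percentile 82.3, AGO2 at 63.8, DICER1 at 23.2 and AGO4 at 10.2. The 3 genes with the longest targets, AGO1, AGO2 and AGO3, have deposited lengths of 13712, 14595 and 19660 nt, and which 3′ ends the cells used was not tested.

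Replicates of the null group differed more than those of IMP1-OE. The median size of the log2 ratio between the 2 libraries of a group was 0.22 in IMP1-OE and 0.44 in null over the 9 genes, and 0.24 and 0.40 in the same groups over all genes tested. In null replicate 2, AGO2, AGO4, DICER1 and AGO1 exceeded their level in null replicate 1, by 1.96-fold, 2.24-fold, 1.42-fold and 1.27-fold. TARBP2, XPO5 and DROSHA lay below their level in null replicate 1, by 2.42-fold, 1.36-fold and 1.22-fold. DGCR8 was higher by 1.04-fold and AGO3 lower by 1.02-fold.

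**Figure D5:**
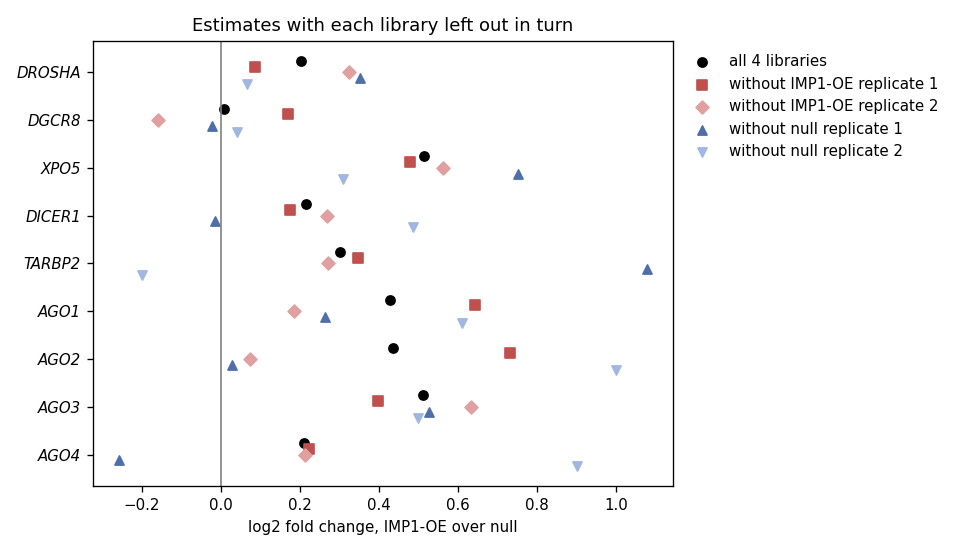
Log2 fold change (IMP1-OE over null) of the 9 genes tested with all 4 libraries (black circles) and with each library left out in turn. Estimates for TARBP2 run from -0.20 to 1.08, those for AGO4 from -0.26 to 0.90 and those for AGO2 from 0.03 to 1.00, while AGO3 stays between 0.40 and 0.63 and XPO5 between 0.31 and 0.75.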

How the data were processed

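RNA from 4 HT-29 libraries was randomly fragmented, and fragments of 18 to 50 nt were ligated to linkers with molecular identifiers, depleted of ribosomal RNA and amplified for 15 PCR cycles, per the labels' protocols. The sources used here do not give the use of the identifiers against PCR copies, so the count floors and the Poisson interval cover only counting error. The submitters' processing notes name kallisto 0.46.2, HISAT2 2.1.0, fastp 0.21, Cutadapt 3.5 and DESeq with no role for each. Genome build and annotation: not given in the sources used here. The authors deposited kallisto's estimated counts, per the file headers, for 20322 targets, 1 per gene. The counts were rounded to whole numbers here before any step, and whether the deposited values were whole was not checked. Rows of 2 other sample names, with no matching label, were not analysed here. The second table that the authors deposited holds log2 fold changes, p-values and a mean normalized score per gene, per the file headers; positive values mean higher in IMP1-OE, and its log2 values are not printed.

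The test was that of edgeR 4.0.16 in R 4.3.3, with TMM scaling, the default low-count filter (12113 genes) and the quasi-likelihood F test, IMP1-OE against null, with Benjamini-Hochberg adjustment over all genes tested and a threshold of 0.05. Intervals are fitted value ± t quantile × standard error. The level per kilobase is CPM divided by kallisto's effective length. With 2 libraries against 2 an exact permutation test cannot give a p under 0.333. DESeq2 1.42.0 with default settings gave the same 164 calls as the deposited table. Replicates differed beyond counting noise (chi-square per degree of freedom 19.2 for IMP1-OE and 55.3 for null), so none were merged. The steps were tested on simulated counts with 4-fold changes, and smaller changes were not simulated.

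The members and gene lists were chosen with earlier results of these data known. The genes named are the 10 members, the 3 genes of smallest p in each pathway list and any others at an unadjusted p under 0.05, IGF2BP1, ARSI and the 3 nearest profiles to the member of smallest p. Sequences are from RefSeq (GRCh38.p14).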

Additional observations from a re-analysis of the deposited data

How the results depend on the processing

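Of the 10 miRNA pathway genes, 0 were called by edgeR with all libraries, and also 0 by DESeq2, by limma-voom (1 gene called in all), with other scalings and filters, and with the replicate number as a block. The exception was the omission of libraries, which gave 0 to 1, XPO5 being called without null replicate 1. Over all genes the count was 0 as reported and with RLE or upper-quartile scaling, totals without ARSI or a minimum of 50 counts. It was 164 in DESeq2, 22 with no low-count filter and 15 with the replicate block, and 0 to 783 with 1 library left out. The lowest values, 0, came without either IMP1-OE library, and null replicate 2 left out gave 48. A fit that omits a null library leaves 1 null library, which is assumed to vary like the other group. The replicate numbers are not said in the labels to pair samples. Their deviations correlated at 0.12 across genes, and with the block the log2 fold change of DGCR8 was -0.00041.

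Other signs also turned. DGCR8 was at -0.033 with totals without ARSI, and with a library left out it ranged from -0.16 (IMP1-OE replicate 2) to 0.17. In the same way DICER1 ranged from -0.0145 to 0.49, AGO4 from -0.26 to 0.90 and TARBP2 from -0.20 to 1.08, with the lowest value on omission of null replicate 1 for DICER1 and AGO4, and of null replicate 2 for TARBP2. DROSHA, AGO1, AGO2, AGO3 and XPO5 stayed above 0 in all 12 alternatives. The scalings moved the median of all genes between -0.06 and -0.004. The number of genes higher in every IMP1-OE library was 3 of 9 with all libraries and 5, 5, 5 and 6 on omission of IMP1-OE replicate 1, IMP1-OE replicate 2, null replicate 1 and null replicate 2, an alternative chosen after the data were seen, where the share of all genes was 33.1%, 31.6%, 39.5% and 36.8%. Counting limits LIN28B, which no alternative could test above the floor, and AGO4, with at most 66 counts in a library.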
